A study of Mus musculus with 15 samples.

Results

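The expression of 9 genes that start, shape or restrain inflammation was followed in the liver of Adult, Old and PDX mice. Tnf, Il6, the interleukin-1 pair Il1b and Il1rn, Il18, Il10 and Tgfb1 encode secreted proteins, and Nfkbia and Tnfaip3 encode inhibitors that act inside the cell on the transcription factor NF-kB. The genes were chosen by name for these roles and found by symbol among the 55450 genes counted. Of the 9, 7 passed a filter on low counts that kept 15808 genes, and Il6 and Il10 did not.

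All mice were female C57BL/6 animals without an engineered allele, 5 per group, with 1 liver library per mouse. At the start the Adult group (A1 to A5) was 6 months of age and the Old group (O1 to O5) 22 months, and both were given corn oil, the vehicle, by daily gavage. PDX mice (P1 to P5) were also 22 months old and received protectin DX in corn oil at 30 ng per g of body weight. Protectin DX is a lipid mediator derived from the fatty acid DHA. Gavage lasted 9 weeks by the treatment protocol and 8 weeks by the design text, and there was no adult group given PDX. Old was compared with Adult for the effect of age, PDX with Old for that of treatment, and PDX with Adult for what still separated treated old mice from adult ones.

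In resting cells NF-kB is held in the cytoplasm by IkB-alpha, the product of Nfkbia. Receptors for TNF and IL-1 trigger a kinase cascade that destroys this inhibitor, and NF-kB then switches on cytokine and adhesion genes together with Nfkbia and Tnfaip3, which shut the signal off again. In the liver the resident macrophages, the Kupffer cells, are a main source of TNF, IL-6 and IL-1, and hepatocytes answer with acute phase proteins.

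Each library held between 22424383 and 36070835 counted read pairs. The defining hepatocyte genes were abundant in all 15 mice, with at least 13566 counts for each of 6 markers, so the liver label was met. Mice O2 and O5 stood apart from the other Old mice. The scaling factor of O2 was 1.33, against 0.884 to 1.08 in the others, and summed hepatocyte markers reached 75614 CPM (counts scaled by library size) in O2 and 47039 CPM in O5, below the 129156 to 139935 CPM of the Adult mice. For that reason values without these mice are given beside the results. A lower level in bulk liver cannot be told apart into fewer cells of a type and less RNA per cell. Euthanasia batches were not given per mouse in the sources used here, so no comparison within batches was made. Each p-value measures the spread between mice.

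The genes differed widely in abundance. In Adult liver, as CPM per kilobase of exon, the mean level was 27.4 ± 4.48 (SD, n = 5) for Nfkbia and 13.6 ± 1.03 for Il18. Tgfb1 followed with a per-kilobase level of 2.71 ± 0.39 and Il1b with 2.36 ± 1.55, which do not differ beyond their spread. Per-kilobase levels were lower for Il1rn at 0.71 ± 0.27, Tnfaip3 at 0.43 ± 0.07 and Tnf at 0.24 ± 0.14. Il10 and Il6 came last, with per-kilobase means of 0.071 ± 0.081 and 0.049 ± 0.041 that overlap.

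**Figure D1:**
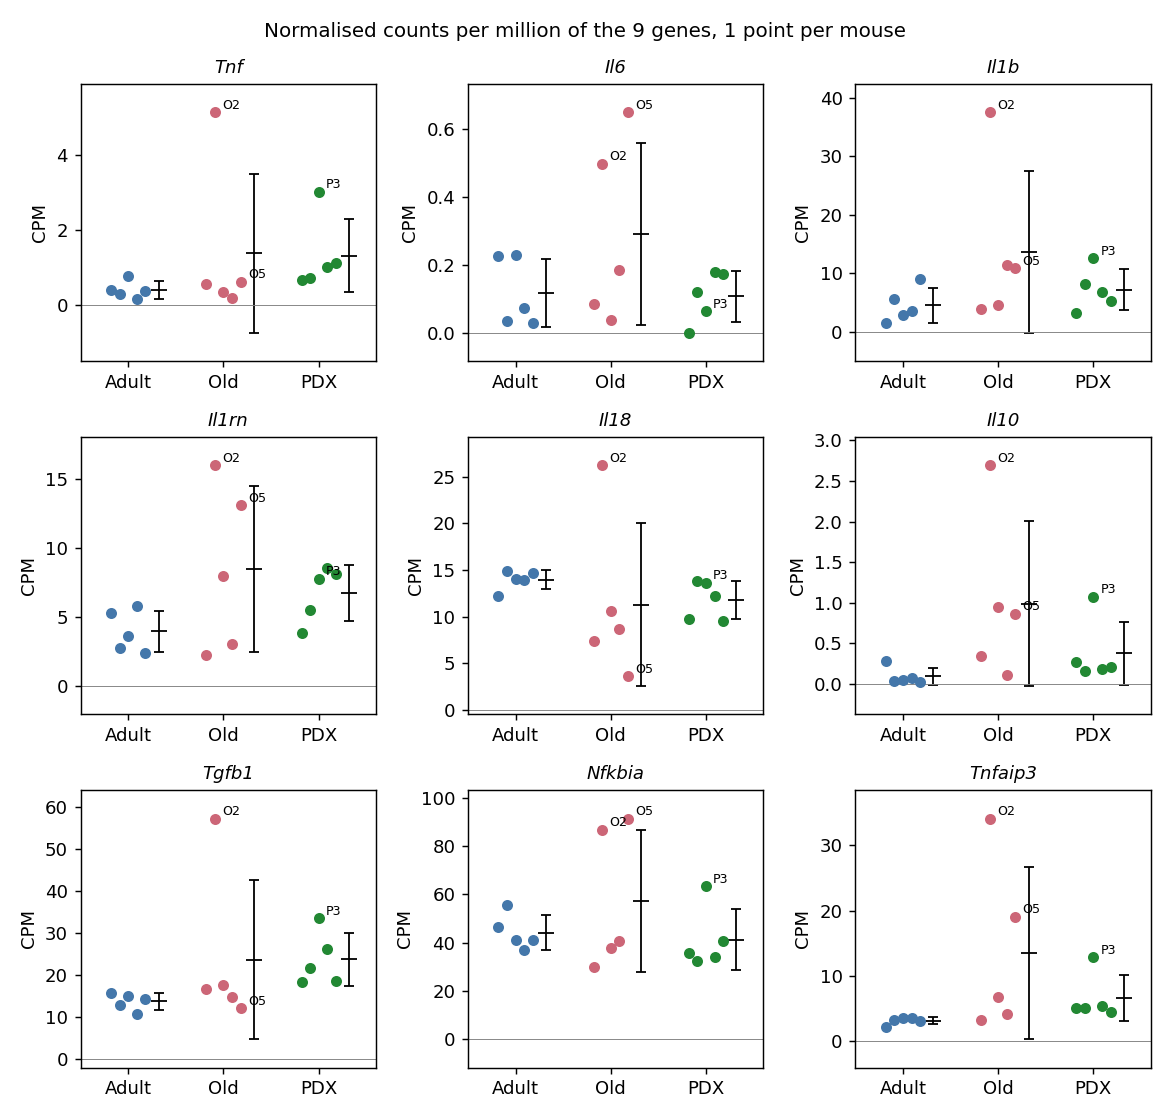
CPM of each of the 9 genes (vertical axis, linear scale, 1 panel per gene) in the Adult, Old and PDX mice, with 1 point per mouse and the mean ± SD of 5 mice in black. O2 is the highest of the 15 mice in 7 panels and O5 in the other 2 (Il6 and Nfkbia), and P3 is the highest PDX mouse in 6.

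Tnf, which encodes the cytokine that opens many inflammatory cascades (ENSMUSG00000024401, minus strand, mm10 chr17:35199381-35202007), had few counts in most livers. Adult mice A1 to A5 gave 14, 8, 17, 4 and 13 counts. The Old mice O1 to O5 gave 13, 176, 9, 5 and 17 counts. PDX mice P1 to P5 gave 17, 18, 96, 28 and 32 counts. O2 alone among the Old mice lay above the Adult range, P3 was the next highest of all mice, and the groups overlapped in every comparison. In CPM the means were 0.394 ± 0.234 for Adult, 1.37 ± 2.12 for Old and 1.30 ± 0.98 for PDX (SD, n = 5 each). The log2 fold change of Old over Adult was 1.82 ± 0.81 (standard error, edgeR adjusted p = 0.159), and without O2 it was 0.13 (adjusted p = 0.919). With both O2 and O5 left out it turned to -0.11. Against Adult, PDX gave 1.74 ± 0.81 (edgeR adjusted p = 0.238), with 3 of 5 PDX mice above every Adult mouse. That difference passed the threshold when O2 was left out (1.75, adjusted p = 0.0389), when O2 and O5 were left out (1.77, adjusted p = 0.0197) and when only the Adult and PDX mice were fitted (1.78, adjusted p = 0.0199). Over all genes, 1766 of 15978, 4004 of 16275 and 4529 of 15297 passed in those fits in turn. O2 and O5 are in neither the PDX nor the Adult group, so the mice compared were the same in these fits. Between PDX and Old the log2 fold change was -0.08 ± 0.76 (edgeR adjusted p = 0.983), and 1.63 without O2 (adjusted p = 0.337).

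Il6 encodes the cytokine that calls up the acute phase response of hepatocytes (ENSMUSG00000025746, plus strand, chr5:30013114-30019981). It was barely sequenced at this depth. The Adult mice gave 8, 1, 5, 2 and 1 counts, 17 in all (exact 95% Poisson interval 9.90 to 27.2, counting error only). Old mice gave 2, 17, 1, 5 and 18 counts, 43 in all (31.1 to 57.9). Counts in the PDX mice were 0, 3, 2, 5 and 5, 15 in all (8.40 to 24.7). O2 and O5 were the 2 highest of the 15 mice, and the 0 of P1 allows up to 0.118 CPM (3 counts). Mean levels of 0.118 ± 0.100 CPM in Adult, 0.291 ± 0.269 in Old and 0.107 ± 0.076 in PDX differed by less than the spread between mice. The exact two-sided permutation test on mean CPM gave p = 0.254 for Old against Adult, 0.230 for PDX against Old and 0.841 for PDX against Adult. For 5 mice against 5, the smallest p it can give is 0.00794. Without O2 and O5 the Old mean was 0.0152 CPM below the Adult mean instead of above it (a difference of -0.0152).

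Il1b, which encodes the fever cytokine IL-1 beta (ENSMUSG00000027398, minus strand, chr2:129364570-129371139), varied several-fold among mice of the same group. Its CPM was 1.41, 5.57, 2.87, 3.55 and 9.07 in A1 to A5. In O1 to O5 it was 3.86, 37.5, 4.49, 11.4 and 10.9. In P1 to P5 it was 3.20, 8.19, 12.5, 6.79 and 5.30. O2, O4 and O5 lay above every Adult mouse while O1 and O3 lay within the Adult range, as did 4 of the PDX mice. The log2 fold change was 1.60 ± 0.61 for Old over Adult (edgeR adjusted p = 0.107), 0.68 ± 0.60 for PDX over Adult (adjusted p = 0.565) and -0.92 ± 0.60 for PDX over Old (adjusted p = 0.793). DESeq2's Wald test placed the age difference just past the threshold (1.60, adjusted p = 0.0432). Leaving out O2 brought it to 0.77 (edgeR adjusted p = 0.380), and leaving out O2 and O5 to 0.56. In that last fit, PDX stood 0.14 above Old on the log2 scale instead of below.

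Il1rn encodes the antagonist that occupies the IL-1 receptor without signalling (ENSMUSG00000026981, plus strand, chr2:24336853-24351494). Adult levels were 5.26, 2.71, 3.60, 5.75 and 2.38 CPM. Old levels were 2.25, 15.9, 7.92, 3.05 and 13.1 CPM. PDX levels were 3.79, 5.50, 7.73, 8.54 and 8.08 CPM. O2, O3 and O5 in the Old group and P3, P4 and P5 in the PDX group lay above every Adult mouse, and O1 lay below them all. For Old over Adult the log2 fold change was 1.10 ± 0.47 (edgeR adjusted p = 0.141), and 0.18 without O2 and O5. PDX over Adult came to 0.77 ± 0.47 (adjusted p = 0.363) and PDX over Old to -0.33 ± 0.46 (adjusted p = 0.863). The last value was 0.62 without O2 and O5.

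The ratio of antagonist to cytokine varied widely within each group, and it is given as a description. Per kilobase, the ratio of Il1rn to Il1b ran from 0.0905 in A5 to 1.29 in A1 among Adult mice. It ran from 0.0923 in O4 to 0.608 in O3 among Old mice, and from 0.213 in P3 to 0.526 in P5 among PDX mice. All ranges overlap, and the PDX range lies inside that of the Adult mice.

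Il18 encodes a cytokine made as a precursor and released after cleavage by caspase-1 (ENSMUSG00000039217, plus strand, chr9:50554827-50581840). It was the exception among the cytokines, since most Old livers held less of it. Adult levels were tight at 12.2, 14.9, 14.1, 13.9 and 14.7 CPM. In the Old mice they were 7.39, 26.2, 10.6, 8.69 and 3.61 CPM. PDX livers gave 9.78, 13.8, 13.7, 12.2 and 9.56 CPM. O1, O3, O4 and O5 lay below every Adult mouse and O2 above every one, so that 4 of 5 Old mice and the remaining one fell on opposite sides. The log2 fold change of Old over Adult was -0.30 ± 0.36 (edgeR adjusted p = 0.620). Without O2 it was -0.87 (adjusted p = 0.0519), and without O2 and O5 -0.64 (adjusted p = 0.0264), which passed the threshold. In that last fit 1158 of all 16275 genes passed with age. PDX differed by -0.24 ± 0.36 from Adult (adjusted p = 0.761) and by 0.06 ± 0.36 from Old (adjusted p = 0.973).

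Il10 encodes the cytokine with which macrophages and lymphocytes restrain inflammation (ENSMUSG00000016529, plus strand, chr1:131019845-131024974). The Adult mice gave 10, 1, 1, 2 and 1 counts, 15 in all (exact 95% Poisson interval 8.40 to 24.7). Old mice gave 8, 92, 25, 3 and 24 counts, 152 in all (129 to 178). PDX mice gave 7, 4, 34, 5 and 6 counts, 56 in all (42.3 to 72.7). O1, O2, O3 and O5 lay above every Adult mouse in CPM, and O4 lay below A1. Mean levels were 0.0928 ± 0.1066 CPM in Adult, 0.990 ± 1.014 in Old and 0.379 ± 0.390 in PDX. The Old mean was 10.7 times the Adult mean (exact two-sided permutation test, p = 0.0159). Single mice moved this ratio, to 6.09 without O2 and 5.01 without O2 and O5. A1 held 10 of the 15 Adult counts. A2 to A5 held 1 or 2 counts each, under the floor of 3 counts, so no ratio is given without A1. The PDX mean was 4.08 times the Adult mean (p = 0.0476 by the same exact test), and 2.22 times without P3. P3 was the only PDX mouse above the Adult range, and the other PDX mice lay below A1. PDX and Old were not separated (exact p = 0.318). The 6 exact tests on Il6 and Il10 were not adjusted for their number. In edgeR without the low-count filter, where p-values were adjusted over 29465 genes, Il10 gave a log2 fold change of 3.29 ± 0.84 for Old over Adult (adjusted p = 0.0492) and 1.94 ± 0.84 for PDX over Adult (adjusted p = 0.304).

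The exact p of Il10 with age stayed under 0.05 without O2 and O5 and missed it without any 1 Adult mouse. The Old mean remained at least 9.10 times the Adult mean without A2, A3, A4 or A5. Without O2 and O5 the exact p was 0.0357, and without O2 it was 0.0159. On raw counts it was 0.0556, without A1 it was also 0.0556, and without any other single Adult mouse it was 0.0635 by the same exact permutation test. With 1 Adult mouse left out Il10 passed the low-count filter, but only through the old groups. There edgeR gave a log2 fold change of 3.06 to 3.22 without A2, A3, A4 or A5 (adjusted p = 0.0889 to 0.0930). Without A1 the edgeR adjusted p was 0.0469, and no fold is given because the Adult mean lay under 3 counts. These fits give no separate support, since the gene entered them through the groups where it was high. For PDX against Adult the exact p was 0.175 on raw counts, 0.111 without P3, 0.135 without A4 and 0.143 without A2, A3 or A5.

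Tgfb1 encodes the growth factor that drives stellate cells to make collagen and also dampens lymphocytes (ENSMUSG00000002603, plus strand, chr7:25687002-25705077). Its level was 15.7, 12.8, 14.8, 10.7 and 14.3 CPM in the Adult mice. It was 16.5, 57.3, 17.6, 14.7 and 12.0 CPM in the Old mice. It was 18.4, 21.7, 33.5, 26.2 and 18.5 CPM in the PDX mice. Every PDX mouse lay above every Adult mouse, whereas the Old group overlapped with both. Old and PDX had nearly equal means, 23.6 ± 19.0 and 23.7 ± 6.37 CPM against 13.7 ± 1.95 in Adult, but the Old mean was carried by O2. The log2 fold change was 0.79 ± 0.36 for Old over Adult (edgeR adjusted p = 0.166) and 0.16 without O2 (adjusted p = 0.640). It was also 0.79 ± 0.36 for PDX over Adult (adjusted p = 0.225), which passed the threshold at 0.80 without O2 (adjusted p = 0.0119), at 0.81 without O2 and O5 (adjusted p = 0.00338) and at 0.81 in a fit of the Adult and PDX mice only (adjusted p = 0.00461). As given for Tnf, 1766 of 15978, 4004 of 16275 and 4529 of 15297 genes passed in those fits in turn. PDX over Old was 0.0018 ± 0.3555 (edgeR adjusted p = 0.998), and 0.64 without O2 (adjusted p = 0.320).

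Nfkbia, whose product IkB-alpha holds NF-kB in the cytoplasm (ENSMUSG00000021025, minus strand, chr12:55489410-55492647) was the most abundant of the 9 genes per kilobase. Its level was 46.4, 55.6, 40.9, 36.9 and 40.9 CPM in the Adult mice. In Old mice it was 29.7, 86.8, 38.0, 40.7 and 91.5 CPM. In PDX mice it was 35.6, 32.4, 63.4, 34.2 and 40.8 CPM. O2 and O5 lay above all other mice and O1 below every Adult mouse, and in the PDX group only P3 exceeded the Adult range while P1, P2 and P4 lay under it. The log2 fold change was 0.38 ± 0.30 for Old over Adult (edgeR adjusted p = 0.428), -0.47 ± 0.30 for PDX over Old (adjusted p = 0.793) and -0.10 ± 0.29 for PDX over Adult (adjusted p = 0.893). Without O2 and O5 the first 2 became -0.28 and 0.20, of the opposite sign.

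Tnfaip3 encodes A20, the ubiquitin-editing enzyme that takes apart TNF and IL-1 receptor signalling complexes (ENSMUSG00000019850, minus strand, chr10:19000910-19015657). Of the 7 genes tested it was the only one to pass the threshold in any comparison, being higher in Old than in Adult liver. Adult mice gave 2.25, 3.24, 3.56, 3.51 and 3.04 CPM. Old mice gave 3.27, 34.1, 6.82, 4.16 and 19.1 CPM. PDX mice gave 5.05, 5.10, 12.9, 5.39 and 4.44 CPM. O2, O3, O4 and O5 lay above every Adult mouse and O1 lay inside the Adult range, and all 5 PDX mice lay above every Adult mouse. Counts behind these values were 78 to 106 in Adult, 77 to 1164 in Old and 127 to 408 in PDX mice. The log2 fold change of Old over Adult was 2.11 ± 0.56, a 4.33-fold rise (edgeR adjusted p = 0.0376). PDX over Adult was 1.08 ± 0.55 (adjusted p = 0.277) and PDX over Old -1.04 ± 0.54 (adjusted p = 0.793).

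The Tnfaip3 rise depended on the mice and on the model. Without O2 the log2 fold change was 1.42 (edgeR adjusted p = 0.0893), and without O2 and O5 it was 0.62 (adjusted p = 0.282). Leaving out A1, A2, A3, A4 or A5 kept it between 2.01 and 2.16 with an adjusted p of 0.0875, 0.0851, 0.0803, 0.0830 and 0.0876 in turn, and leaving out P4 gave 2.11 (adjusted p = 0.0524). Without A1 to A5 in turn, 243, 187, 195, 206 and 156 of all genes were called with age, against 1072 in all mice. Fitting the Adult and Old mice alone gave 2.14 for Tnfaip3 (edgeR adjusted p = 0.111), and limma on the deposited log2-scale values gave 1.42 (adjusted p = 0.102). The PDX mice passed the threshold against Adult without O2 and O5 (1.10, adjusted p = 0.0166) and in a fit of the Adult and PDX mice only (1.10, adjusted p = 0.0147). Over all genes, 4004 of 16275 and 4529 of 15297 passed in those fits in turn. Without O2 and O5, PDX lay 0.48 above Old on the log2 scale.

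**Figure D2:**
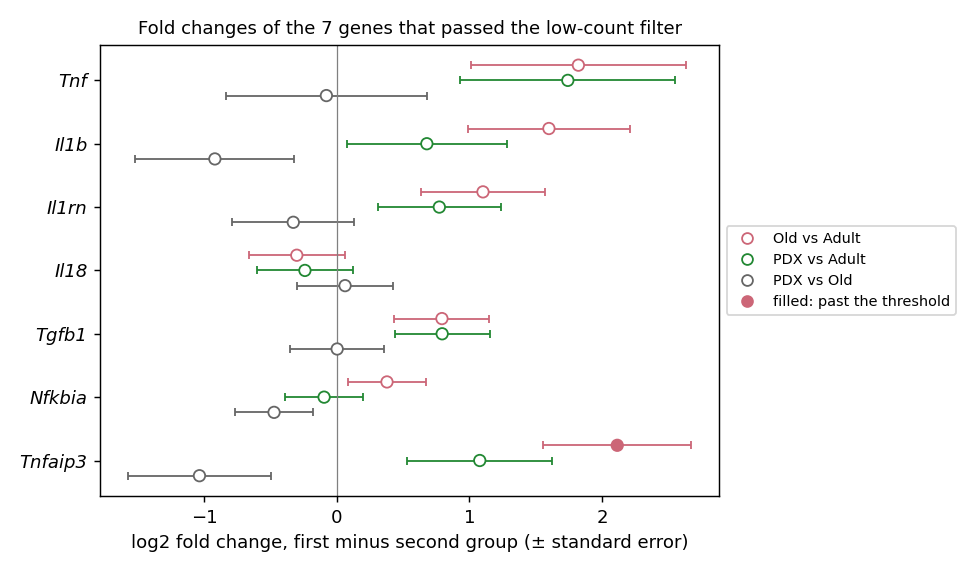
Log2 fold change ± standard error (horizontal axis) from the edgeR fit of 15 mice, for the 7 genes with a test (rows), in 3 comparisons (colours). The only filled point, Tnfaip3 in Old over Adult at 2.11, is the only value past its threshold, and the values of PDX over Old lie between -1.04 and 0.06.

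Nfkbia, Tnfaip3 and Il6 are textbook NF-kB targets, and their promoters are shown to set the letters that NF-kB is known to bind beside the levels above. Each window holds 250 bases before and 50 after a RefSeq start in GRCm38.p6, the assembly that mm10 names, read 5′ to 3′ on the strand of the gene. Capitals mark places that fit the kappa B consensus, searched by name on both strands, where a match on one strand can overlap a match on the other. Tnfaip3 is on the minus strand at chr10:19015361-19015660, Nfkbia on the minus strand at chr12:55492598-55492897 and Il6 on the plus strand at chr5:30012864-30013163.
Tnfaip3: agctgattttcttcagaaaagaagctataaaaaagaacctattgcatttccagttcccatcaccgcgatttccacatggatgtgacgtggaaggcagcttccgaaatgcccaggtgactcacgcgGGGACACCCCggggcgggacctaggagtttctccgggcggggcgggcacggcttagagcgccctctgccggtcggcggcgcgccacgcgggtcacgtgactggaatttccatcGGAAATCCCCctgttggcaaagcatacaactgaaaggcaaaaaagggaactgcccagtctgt
Nfkbia: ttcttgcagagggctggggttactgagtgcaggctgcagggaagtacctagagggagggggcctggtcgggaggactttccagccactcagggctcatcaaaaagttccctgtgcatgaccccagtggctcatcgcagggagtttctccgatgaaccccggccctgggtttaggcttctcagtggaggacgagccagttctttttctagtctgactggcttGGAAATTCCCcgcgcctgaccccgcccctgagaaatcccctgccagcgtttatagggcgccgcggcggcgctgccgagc
Il6: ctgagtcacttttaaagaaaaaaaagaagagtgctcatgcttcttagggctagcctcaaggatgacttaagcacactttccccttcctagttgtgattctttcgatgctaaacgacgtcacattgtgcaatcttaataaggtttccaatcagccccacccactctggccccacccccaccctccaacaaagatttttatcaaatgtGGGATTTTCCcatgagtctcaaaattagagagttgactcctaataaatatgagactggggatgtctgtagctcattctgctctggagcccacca
The Tnfaip3 window holds 2 such places, 125 to 116 and 12 to 3 bases before the start, the first of which matches on both strands. Nfkbia has 1 at 29 to 20 bases and Il6 has 1 at 44 to 35 bases before the start. In the table used here 8 of the 9 genes had a window, 11 windows in all, and 4 of these 11 held a match (those of Il6, Tgfb1, Tnfaip3 and Nfkbia). Of all 32851 windows of the same length, 2779 did (8.46%). No match lay in the windows of Tnf, Il1b, Il1rn or Il18, and only windows with a match are printed above. A match describes the letters of the window and shows neither binding nor use of the place in these livers.

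Counted over the group, 1 of the 7 tested genes passed an adjusted p of 0.05 between Old and Adult, where 6.78% of all genes tested did. This was a rise, as for 4.71% of all genes, and no member fell, as 2.07% of all genes did. An unadjusted p under 0.05 was found for 5 of the 7 (Tnf, Il1b, Il1rn, Tgfb1 and Tnfaip3), against 27.7% of all genes. The groups were fully separated for 0 of 7, against 8.13%. The median log2 fold change of the 7 was 1.10, and that of all genes tested 0.07. Without O2 and O5 the log2 fold changes with age were smaller or of opposite sign for most of the 7. They were -0.11 for Tnf, 0.56 for Il1b, 0.18 for Il1rn and -0.64 for Il18. Tgfb1 then gave 0.26, Nfkbia -0.28 and Tnfaip3 0.62.

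Between PDX and Old, 0 of 7 passed an adjusted p of 0.25, the limit used in the study, and 0% of all genes did. DESeq2's Wald test also called 0 of these genes. An unadjusted p under 0.05 was reached by 0 of 7, against 5.28% of all genes, and separated groups by 0 of 7, against 0.342%. Their median log2 fold change was -0.33, against -0.07 for all genes. Against Adult, PDX passed the 0.05 threshold for 0 of 7, compared with 2.66% of all genes (1.76% higher and 0.898% lower), and DESeq2 called 0 as well. Here 2 of 7, Tnf and Tgfb1, had an unadjusted p under 0.05, against 20.6%, and 2 of 7, Tgfb1 and Tnfaip3, had separated groups, against 19.9%. The comparisons share the Adult or the Old mice, so their values are not independent of each other.

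The wider pathway was read from 85 other genes in 8 lists, 75 of which were tested. With age, 15 rose and 1 fell at an adjusted p of 0.05, and 59 were not called, where 4.71% of all genes rose and 2.07% fell. The 15 include Il1r2, which passed the low-count filter through the old groups. The median log2 fold change of the 75 was 0.53. In PDX over Adult, 7 rose, 1 fell and 67 were not called, with a median of 0.52, where 1.76% of all genes rose and 0.898% fell. In PDX over Old, 0 of 75 were called at 0.25 by edgeR and 0 by DESeq2, 1 had an unadjusted p under 0.05, and the median was -0.10. The medians of all genes tested were 0.07, -0.01 and -0.07 in the same order.

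The list named for feedback inhibitors held 13 tested genes besides Nfkbia and Tnfaip3. Of these 13, 5 rose with age and 4 in PDX over Adult, where 4.71% and 1.76% of all genes did. Each count includes the nuclear IkB proteins Nfkbiz and Bcl3, and whether these inhibit or activate NF-kB here was not tested. Irak3, which blocks IL-1 receptor signalling, rose by 2.17 ± 0.51 on the log2 scale with age, from 1.82 ± 0.45 to 8.20 ± 6.68 CPM (edgeR adjusted p = 0.0272), and by 2.19 ± 0.51 in PDX over Adult (adjusted p = 0.0316). It gave 0.90 with age without O2 and O5 (adjusted p = 0.124). Nfkbiz, an atypical nuclear IkB protein, rose by 1.22 ± 0.25 with age (adjusted p = 0.0173) and by 1.26 ± 0.25 in PDX over Adult (adjusted p = 0.0153). Zc3h12a, which encodes a nuclease that degrades cytokine mRNA, rose by 1.19 ± 0.28 with age (adjusted p = 0.0281), and Bcl3, another nuclear IkB protein, by 1.26 ± 0.24 in PDX over Adult (adjusted p = 0.0128). Nfkbiz gave 0.71 (edgeR adjusted p = 0.0183) and Zc3h12a 0.59 (adjusted p = 0.0451) with age when O2 and O5 were left out. For Irak3 and Nfkbiz every Old and every PDX mouse lay above every Adult mouse.

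Among 9 NF-kB target genes, 4 rose with age and 0 passed in PDX over Adult, where 6 had an unadjusted p under 0.05 and DESeq2 called 2. That difference between the comparisons was not tested. The adhesion genes Vcam1 and Icam1 rose by 2.22 ± 0.56 (edgeR adjusted p = 0.0337) and 1.74 ± 0.40 (adjusted p = 0.0264), and the early response gene Ier3 by 1.39 ± 0.33 (adjusted p = 0.0282). In CPM, Vcam1 went from 16.1 ± 4.91 in Adult to 74.8 ± 93.3 in Old mice, so the spread among Old mice was larger than their mean. In the fit without O2 and O5 the log2 fold changes were 1.09 for Vcam1 (edgeR adjusted p = 0.0400), 0.63 for Icam1 (adjusted p = 0.0328) and 0.78 for Ier3 (adjusted p = 0.0983). Of the 5 NF-kB subunits 1 was called with age by edgeR and 2 by DESeq2. Relb, of the noncanonical arm, rose by 1.80 ± 0.49 (edgeR adjusted p = 0.0405), and gave 0.60 without O2 and O5 (adjusted p = 0.295). None of the 13 adaptors and kinases was called in any comparison, at medians of 0.21 with age, 0.03 in PDX over Adult and -0.07 in PDX over Old, with an unadjusted p under 0.05 in 2, 1 and 0 of them and 0 calls by DESeq2.

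Of 14 receptors, 2 rose and 1 fell with age. Il1rap, the shared co-receptor of the IL-1 family, fell from 129 ± 10.0 to 41.3 ± 25.8 CPM in Old mice (log2 fold change -1.64 ± 0.38, edgeR adjusted p = 0.0264) and to 40.8 ± 19.9 CPM in PDX mice (-1.66 ± 0.38, adjusted p = 0.0297), with every old mouse of either group below every Adult mouse. The fall with age was -1.21 without O2 and O5 (edgeR adjusted p = 0.0465). Il1r2, a decoy receptor for IL-1, was called higher with age (adjusted p = 0.0467) on few counts, which were 3, 2, 4, 0 and 0 in Adult and 11, 25, 5, 0 and 125 in Old mice. It passed the low-count filter through the old groups, no fold is given because the Adult mean lay under 3 counts, and without O2 and O5 it was not called (adjusted p = 0.317). The TNF receptor gene Tnfrsf1a rose by 0.49 ± 0.13 with age (adjusted p = 0.0376) and by 0.56 ± 0.13 in PDX over Adult (adjusted p = 0.0311), and without O2 and O5 gave 0.36 with age (adjusted p = 0.0730). Among the other cytokines, 1 of 7 tested was called with age by edgeR, 3 had an unadjusted p under 0.05, and DESeq2 called 3. Tgfb3 rose by 1.34 ± 0.36 (edgeR adjusted p = 0.0396), and gave 0.79 without O2 and O5 (adjusted p = 0.136).

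Among 8 binding and processing proteins, Ltbp1, which tethers latent TGF-beta to the matrix, rose with age (1.15 ± 0.28, edgeR adjusted p = 0.0295), and by 0.86 without O2 and O5 (adjusted p = 0.0371). Il18bp, the secreted trap of IL-18, rose in PDX over Adult from 16.0 ± 1.56 to 40.5 ± 9.59 CPM (1.34 ± 0.22, adjusted p = 0.00566). In the STAT3 arm that transmits IL-6 and IL-10 signals, edgeR called 1 of 6 genes and DESeq2 called 2, both with age and in PDX over Adult. The feedback gene Socs3 rose by 1.40 ± 0.35 with age (edgeR adjusted p = 0.0322) and by 1.76 ± 0.36 in PDX over Adult (adjusted p = 0.0162), and without O2 and O5 gave 1.20 with age (adjusted p = 0.0775). The calls of named genes in PDX over Adult all held without O2 and O5, a fit that called 4004 of all 16275 genes. As O2 and O5 are in neither of these groups, that fit is no check on the mice compared.

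**Figure D3:**
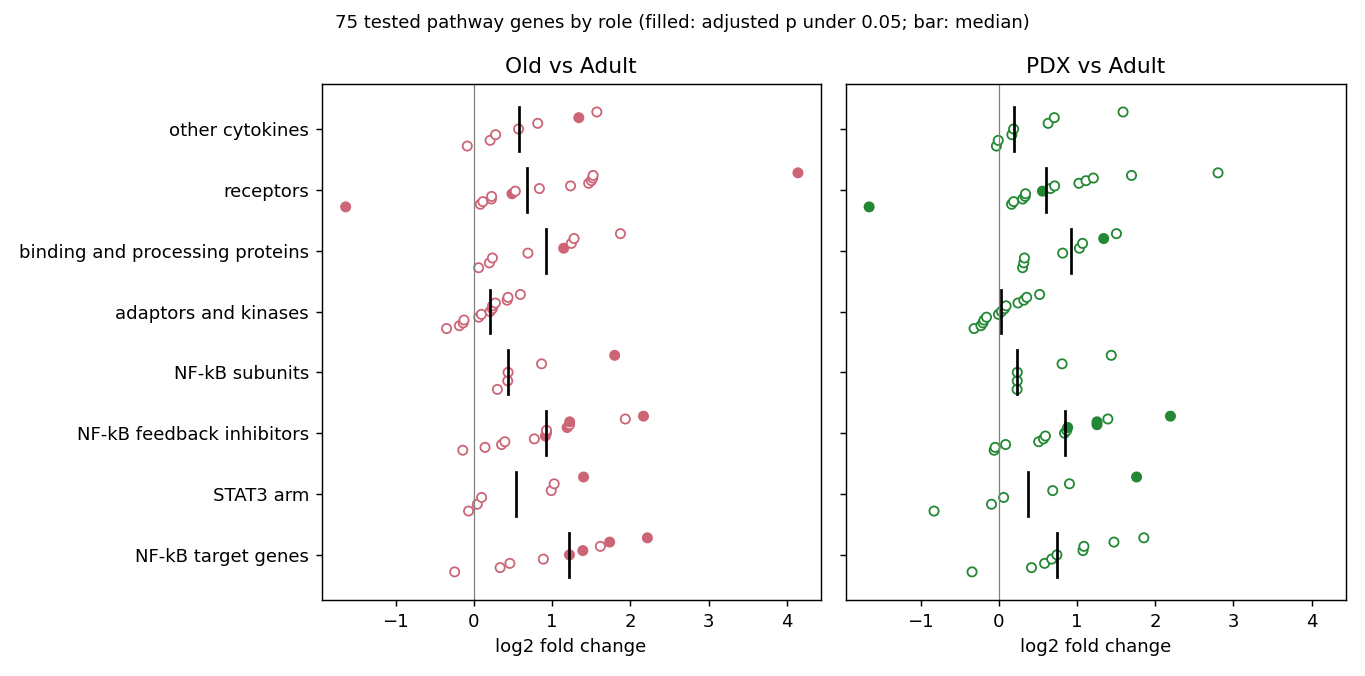
Log2 fold change (horizontal axis) of 75 tested pathway genes in 8 lists (rows), for Old over Adult (left) and PDX over Adult (right), with 1 point per gene, filled where the adjusted p was under 0.05, and a black bar at the median of each list. Medians lie above 0 in all 8 lists of both panels, and the lone filled point left of 0 is Il1rap at -1.64 and -1.66.

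These counts, and those over all genes, moved with single mice. With age, 2, 0, 1, 1 and 1 pathway genes were called without A1, A2, A3, A4 and A5 in turn, 8 without O2 and 28 without O5. Over all genes, 243, 187, 195, 206 and 156 were called with age without A1 to A5 in turn. Such calls were 691 without O2, 2115 without O5 and 1072 in all mice. In PDX over Adult, 4, 2, 3, 4 and 4 pathway genes were called without A1 to A5, 24 without O2, 22 without O5, 4 without P1 or P2 and 5 without P3 or P4. Over all genes, 206, 178, 197, 191 and 166 were called without A1 to A5, 1766 without O2 and 1744 without O5. Without P1 to P4 in turn the calls were 196, 172, 262 and 231, against 420 in all mice. Without O2 and O5 together, 10 pathway genes rose and 3 fell with age, where 1158 of all 16275 genes were called. Of these 13 pathway genes, 8 were among the 16 called in all mice. In the same fit of PDX over Adult, 41 pathway genes rose and 2 fell, and 4004 of all 16275 genes were called.

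Markers of some immune cells, but not all, moved with the same mice. Summed over 6 Kupffer cell markers, O2 held 2633 CPM and O5 247 CPM, against 382 to 588 CPM in Adult and 661 to 1414 CPM in PDX mice. Over 6 markers of monocytes and recruited macrophages, O2 held 279 CPM, O5 106 CPM and P3 99.7 CPM, with 14.9 to 19.7 CPM in Adult, 32.5 to 279 in Old and 36.4 to 99.7 in PDX mice. T cell markers (6 genes) stood at 163 CPM in O2 and 25.2 CPM in P3, and between 2.16 and 9.61 CPM in the other 13 mice. O2 was thus the highest mouse for these lists, and P3 the highest PDX mouse, as they were for Tnf, Il1b, Il10, Tgfb1 and Tnfaip3.

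Neutrophil markers (6 genes, 5 tested) ranged from 5.04 to 10.1 CPM in Adult, 10.8 to 139 in Old and 19.8 to 49.2 in PDX mice. The 4 B cell markers ranged from 5.04 to 8.53, 8.51 to 97.4 and 14.6 to 53.3 CPM in the same groups. Markers of myeloid progenitors (4 genes, 3 tested) ranged from 0.169 to 0.866, 6.02 to 65.1 and 17.3 to 142 CPM. Among PDX mice P2 was the highest for neutrophil and progenitor markers and P1 for B cell markers. P3 held 35.0 CPM of neutrophil, 34.6 of B cell and 17.3 of progenitor markers. For progenitor markers P2 was the highest of all mice, and O2 held 60.7 CPM. With age, 3 of 6 monocyte, 3 of 5 neutrophil and 3 of 4 B cell markers rose, where 4.71% of all genes did. These became 3, 0 and 2 without O2 and O5, where 1158 of all 16275 genes were called. Without O2 alone they were 3, 1 and 0, where 691 of all 15978 genes were called. The progenitor markers passed the low-count filter through the old groups, with counts of 0 to 14 per gene in Adult mice, so no count of rises is given for them. With age, 0 of 6 Kupffer and 0 of 6 T cell markers were called by edgeR (1 and 3 at an unadjusted p under 0.05, and 0 by DESeq2 of the 5 and 1 it tested). No listed marker was at 0 in every mouse. Outside the immune lists, summed cholangiocyte markers (5 genes) ranged from 37.7 to 50.9 CPM in Adult, 51.0 to 95.8 in Old and 53.0 to 104 in PDX mice. Endothelial markers (5 genes) ranged from 248 to 269, 118 to 240 and 196 to 262 CPM, and stellate cell markers (5 genes) from 160 to 168, 127 to 485 and 129 to 317 CPM. The part of any list in the results above was not tested.

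**Figure D4:**
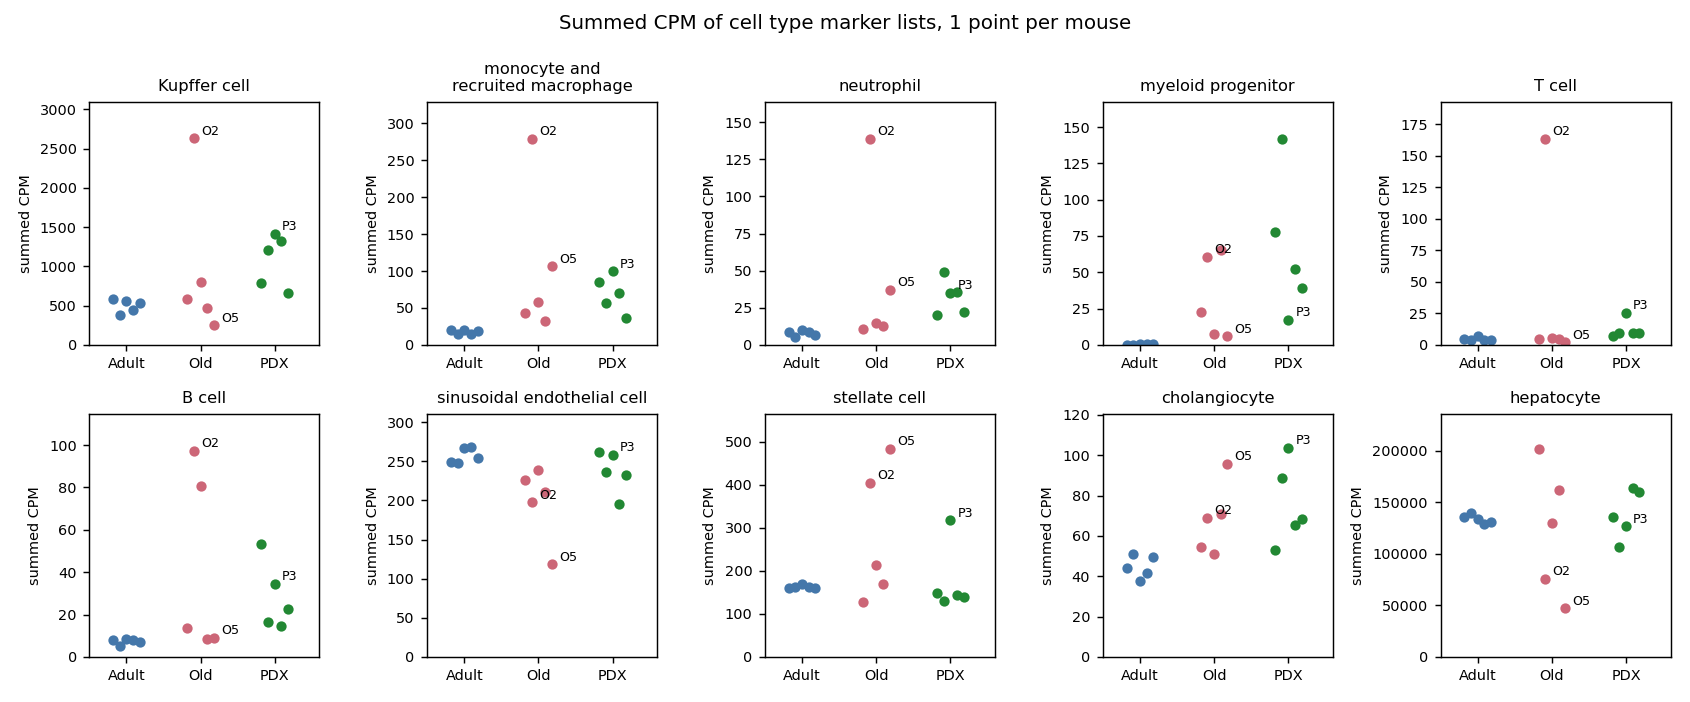
Summed CPM of 10 lists of cell type markers (vertical axis, linear scale from 0, 1 panel per list), with 1 point per mouse in the Adult, Old and PDX groups. O2 is the highest mouse for Kupffer cells, monocytes and recruited macrophages, neutrophils, T cells and B cells, and O5 is the lowest for hepatocytes, Kupffer cells, T cells and sinusoidal endothelium and the highest for stellate cells.

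O5 and O2 were the 2 highest mice for Nfkbia, Il6, Tnfaip3, Il1rn and the stellate cell markers (485 and 404 CPM), and the 2 lowest for the hepatocyte markers. For Il18 they were the lowest and the highest of the 15 mice, and for Kupffer cell and T cell markers also the lowest and the highest. By the labels O5 had the highest frailty index of the 15 mice, 0.56, and O2 the lowest of the Old group, 0.11, with the shortest treadmill distance of all, 33.9 m. O2, with 3 positive frailty criteria, and O5, with 4, were both labelled Frail, as were O3 and O4.

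Patterns over the 15 mice were compared by Pearson's r of log2 CPM, as a description without a test, since mice of 3 groups and the extreme O2 and O5 enter each value. Tgfb1 was followed most closely by Lrrc25 (r = 0.981), Lpcat2 (0.981) and Cfp (0.978), and these values were 0.985, 0.957 and 0.969 in the 13 mice other than O2 and O5. Nearest to Tnf were Gm10134 (0.952), Vasp (0.942) and Cd8b1 (0.933), at 0.937, 0.909 and 0.887 in the 13 mice. Tnfaip3 ran closest to App (0.968), Vill (0.961) and Cdc42se2 (0.951), at 0.896, 0.859 and 0.847 without these mice.

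In the 13 mice r was lower for the neighbours of the remaining genes too, as for all those above except Lrrc25. The nearest to Il1b were Rnf157, Rab37 and Cacna2d1 (0.872 to 0.886, and 0.787 to 0.817 in the 13 mice), and to Il1rn Sema4b, Gm49759 and Mfap3 (0.894 to 0.911, and 0.831 to 0.859). Nfkbia was nearest to Loxl2, Slc48a1 and Ppp1r12b (0.921 to 0.952, and 0.731 to 0.858), and Il18 to Cep250, Itpkb and Sh3bgrl (0.945 to 0.950, and 0.745 to 0.791). Among the 21 pairs of tested members r ran from -0.02 to 0.90 (median 0.56), highest for Tnf with Tgfb1 (0.90, and 0.88 in the 13 mice), and the median was 0.26 in the 13 mice.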

How the data were processed

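Liver mRNA from 15 female mice was sequenced as 50-base paired ends from strand-specific, poly(A)-selected libraries. The authors aligned reads to mm10 with STAR (2.6.0c) and deposited raw counts of unique proper read pairs per non-mitochondrial Ensembl gene, made with featureCounts (Subread 1.6.2), of 22424383 to 36070835 pairs per mouse. The authors also deposited log2-scale values from the variance stabilizing transformation of DESeq2 (1.23.10), used here only as an alternative. Symbols and positions (55190 of 55450 gene IDs) and merged exon lengths came from GENCODE M21 of GRCm38, and promoter windows from RefSeq on GRCm38.p6.

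Low genes were dropped with filterByExpr (groups as the design, at least 10 counts and a total of 15) and the rest fitted with the quasi-likelihood test of edgeR (4.0.16, R 4.3.3), with TMM factors, on all 15 mice with 1 coefficient per group. P-values were adjusted over all 15808 genes by Benjamini-Hochberg, with a threshold of 0.05, or 0.25 for PDX against Old after the study. CPM used the TMM-scaled library size, and the standard error is the log2 fold change divided by the root of F. Il6 and Il10, below the filter, had exact two-sided permutation tests of mean CPM (scipy 1.17.1). Log2 CPM for correlations used a prior count of 2. Alternatives were DESeq2 (1.42.0), other scaling, no filter, fits of only the groups compared, limma (3.58.1) on the log2-scale values, a replicate block, and fits without O2 and O5 or each mouse. The steps were tested on simulated data.

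The members, the 8 pathway lists and the 10 marker lists were chosen with earlier results of these data known. Besides the members, the text names the called pathway genes, at most the 3 largest rises and 3 largest falls of a list per comparison, and the 3 tested genes with the highest r to each tested member. Each of the 15 columns is named for its mouse. Groups came from the labels.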

Additional observations from a re-analysis of the deposited data

Results flagged for a closer look

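Among 27 sets of 5 mice (9 genes in 3 groups), 8 had a highest mouse whose gap to the next was above Dixon's 95% limit of 0.71 of the range. That limit marks about 1 in 20 sets of normally distributed values, which CPM and low counts need not follow. The 8 are therefore given as a description, without a rate by chance. In the Old group the mouse set apart was O2 for Tnf (5.15 CPM, next 0.613), Il1b (37.5 CPM, next 11.4) and Tgfb1 (57.3 CPM, next 17.6). In the PDX group it was P3 for Tnf (3.03 CPM, next 1.10), Il10 (1.07 CPM, next 0.276), Nfkbia (63.4 CPM, next 40.8) and Tnfaip3 (12.9 CPM, next 5.39). In the Adult group it was A1 for Il10 (0.281 CPM, next 0.0732), which is 10 counts against at most 2 in the other Adult mice. The sets are not independent, since the same mice enter all genes.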

How the results depend on the processing

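RLE and upper-quartile scaling kept 1 member and 16 pathway genes called with age, and no member or pathway gene was called between PDX and Old under any alternative. With age, the members called were 3 with DESeq2 (Il10, Il1b and Tnfaip3), 2 without the low-count filter (Il10 and Tnfaip3), and 0 with only the 2 groups fitted, with limma on the log2-scale values or with a replicate block. They ranged from 0 to 2 with 1 mouse left out, where Il10, when tested, had passed the low-count filter through the old groups. Without O2 and O5, where 1158 of 16275 genes were called, the 1 member called was Il18 instead of Tnfaip3. In PDX over Adult, 3 were called with only the 2 groups or without O2 and O5, and 0 to 2 with 1 mouse left out. Over all genes, 4529 of 15297 were called with only the 2 groups and 4004 of 16275 without O2 and O5. Pathway genes called with age were 32 with DESeq2, 0 with only the 2 groups, 8 with limma, 2 with the block and 0 to 28 with 1 mouse left out. Over all genes, calls with age were 2642 of 18726 with DESeq2 and 105 of 15040 with only the 2 groups. They were 651 with limma and 237 with the block. In PDX over Adult, pathway genes called were 15 with DESeq2, 41 with only the 2 groups, 5 with the block, 43 without O2 and O5 and 2 to 24 with 1 mouse left out. The causes were not tested.

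Most changes of sign were between PDX and Old. Tnf there was 0.35 with limma, 0.54 with the replicate block, 1.88 without O2 and O5 and -0.66 to 1.63 with 1 mouse left out. Without O2 and O5, Il1b was 0.14, Il1rn 0.62, Nfkbia 0.20, Tnfaip3 0.48 and the Il6 difference 0.00403 CPM. Tgfb1 was -0.0040 with RLE scaling and -0.00013 with only the 2 groups. With 1 mouse left out, Il1rn ran from -0.58 to 0.0366, Il18 from -0.17 to 0.64 and Tgfb1 from -0.17 to 0.64. With age, Tnf was -0.11, Nfkbia -0.28 and the Il6 difference -0.0152 CPM without O2 and O5. In PDX over Adult the Il6 difference ran from -0.0335 to 0.0163 CPM with 1 mouse left out.

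The replicate numbers do not pair the samples, as same-numbered mice are different animals. Deviations of 15 same-numbered pairs correlated at -0.22 to 0.29 (mean -0.02, and 0.00 in 60 other pairs), and the best match shared the number in 8 of 30 cases. With the block, Tnfaip3 was 1.77 with age (edgeR adjusted p = 0.111). Low counts limit Tnf, Il6 and Il10.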
